A study of Homo sapiens with 6 samples.

Results

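The 40 genes described here make up the ATF4 arm of the cellular stress response and the cytosolic aminoacyl-tRNA synthetases. They were chosen by name and function, with earlier results of these data known, from the 60664 genes of the count table: 12 stress regulators, 11 enzymes of serine, one-carbon and amino acid metabolism, 12 synthetases known as ATF4 targets and 5 other synthetases. All 40 symbols were found, and 39 passed the filter on low counts, ASNS being the exception. The RNA came from SiHa PR cells, which the study used as the parental counterpart of a highly metastatic derivative of SiHa, a cervical squamous carcinoma line. There were 3 control samples and 3 samples with P4HA3 overexpression (P4HA3 samples 1, 2 and 3). P4HA3 encodes a subunit of collagen prolyl 4-hydroxylase, and the study examined it for a part in resistance to ferroptosis, an iron-dependent cell death, and in lymph node metastasis. The methods give a lentiviral cDNA as the means of overexpression, whereas the labels name the control samples only as SiHa PR. Nothing in the labels says whether replicates were separate cultures, so that p-values measure the spread between these samples, which may be technical.

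ATF4 is a transcription factor that is held low by its own upstream reading frames and is translated when one of several kinases phosphorylates the initiation factor eIF2alpha, under amino acid shortage, unfolded proteins in the endoplasmic reticulum (ER), haem deficiency or viral RNA. It then turns on genes for amino acid synthesis, import and tRNA charging through composite C/EBP-ATF response elements (CARE), as a dimer with partners such as CEBPG or CEBPB, while DDIT3, TRIB3 and PPP1R15A act further down or feed back. Aminoacyl-tRNA synthetases attach each amino acid to its tRNA, and uncharged tRNA is in turn a signal to the pathway through the kinase GCN2.

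The P4HA3 counts matched the labels, with 86, 62 and 93 in control cells and 45042, 44775 and 49097 with overexpression (log2 fold change 9.15, SE 0.101, edgeR adjusted p = 3.19e-12). Total counts per library lay between 21773488 and 24939948. At these totals 1 CPM, the unit of level used here (counts scaled to a common library size), stood for 21.8 to 24.9 counts. The levels printed were further scaled by TMM normalization factors of 0.979 to 1.02. Libraries of one group differed in how their counts depended on the GC content of a gene. Across genes, Spearman's rho between GC content and a library's deviation from its group mean was 0.22, 0.38 and -0.52 in the control replicates and 0.45, -0.48 and 0.077 in the overexpressing replicates, so control replicate 3 and P4HA3 overexpression replicates 1 and 2 stood furthest apart. Among the squamous and epithelial markers, KRT8 and KRT18 were abundant, whereas KRT5 and TP63 were under 1 CPM in every library. The summed level of the 9 markers was 3171 to 3590 CPM in control cells and 2846 to 3241 CPM with overexpression. Of the 7 tested, 3 were called lower, against 11.4% of all genes tested, and CDH1 changed most (log2 fold change -0.77, edgeR adjusted p = 0.00114). A second edgeR fit, explained below, took out how counts depended on GC content and transcript length. There 2 were lower, CDH1 and KRT18, and 1 was higher, against 7.94% and 10.6% of all genes tested. The higher one was SFN (0.14, edgeR adjusted p = 0.0214), and CDKN2A was no longer called (-0.07, edgeR adjusted p = 0.244). The growth protocol describes uterine smooth muscle. Of the smooth muscle markers, MYH11, DES, CNN1 and LMOD1 were under 1 CPM throughout. SMTN was at 85.2 to 98.1 CPM in control cells and at 86.6 to 101 CPM with overexpression. ACTA2 was at 6.61 to 8.64 CPM and at 7.47 to 8.42 CPM. ACTG2 had 0, 1 and 30 counts in control replicates 1, 2 and 3 and 40, 1 and 44 in the overexpressing replicates. Summed over all 8 smooth muscle markers the level was 103.6 to 114.6 CPM in control cells and 111.2 to 129.6 CPM with overexpression. As counted, TAGLN was the 1 of 4 tested that was called, as higher (log2 fold change 0.96, edgeR adjusted p = 0.000436), against 9.36% of all genes tested. In the second fit 2 were higher, TAGLN and SMTN (0.284, edgeR adjusted p = 0.00251 for SMTN), against 10.6%. With a replicate block added to the first fit 2 were higher, TAGLN and ACTG2 (1.503, edgeR adjusted p = 0.0138 for ACTG2), against 14.1%. The 6 fibroblast markers summed to 185 to 194 CPM in control cells and 146 to 186 CPM with overexpression, and none was called by edgeR as counted. In the second fit LUM was called lower (log2 fold change -0.40, edgeR adjusted p = 0.0157). With a replicate block instead, COL1A1 was called lower (-0.21, edgeR adjusted p = 0.0406). The 5 leukocyte markers summed to at most 0.123 CPM. The part of these markers in the results below was not tested.

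The promoters of the members are shown first where they carry the core of a CARE, because this is the sequence through which ATF4 is known to act. RefSeq promoter windows of GRCh38.p14, from 250 bases before to 50 bases after a gene's start, were matched for 32 of the 40 members and searched on both strands for TGATGNAA. The core was found in 10 of these 32 members (31.3%), against 1217 of all 27305 genes with a window (4.46%). Many members were chosen as known ATF4 targets, so a higher share than over all genes was in part built into the choice. A gene counted if any of its windows held the core, with 49 windows for the 32 members and 35116 for all genes. The core stood in 7 of 10 ATF4-controlled synthetases with a window, in 2 of 7 enzymes, in 1 of 11 stress regulators and in none of 4 other synthetases. Each stretch of 30 bases below is written 5′ to 3′ on the strand of its gene, with the core in capitals.
CEBPG, chr19:33374060-33374089, plus strand: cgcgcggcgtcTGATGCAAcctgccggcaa
ASNS, chr7:97872458-97872487, minus strand: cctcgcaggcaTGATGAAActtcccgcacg
MTHFD1L, chr6:150866346-150866375, plus strand: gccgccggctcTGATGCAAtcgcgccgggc
AARS1, chr16:70289675-70289704, minus strand: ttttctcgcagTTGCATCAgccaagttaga
CARS1, chr11:3057407-3057436, minus strand: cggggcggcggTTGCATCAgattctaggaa
GARS1, chr7:30594834-30594863, plus strand: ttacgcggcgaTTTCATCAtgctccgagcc
IARS1, chr9:92293698-92293727, minus strand: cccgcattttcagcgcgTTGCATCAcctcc
MARS1, chr12:57488053-57488082, plus strand: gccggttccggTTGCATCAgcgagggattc
NARS1, chr18:57621804-57621833, minus strand: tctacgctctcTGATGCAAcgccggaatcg
TARS1, chr5:33440956-33440985, plus strand: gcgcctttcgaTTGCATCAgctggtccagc

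In 8 of the 10 stretches the core read TGATGCAA or its reverse complement TTGCATCA, and ASNS and GARS1 carried TGATGAAA and its reverse complement TTTCATCA. Of the 7 synthetases, 6 carried it in the reverse orientation and NARS1 in the orientation of the gene. The first base of the core lay 187 bases before the start in AARS1, 33 before it in GARS1 and 13 before it in IARS1. In MARS1 and CARS1 the core began 4 and 2 bases before the start and ran across it. In TARS1 and NARS1 it began 2 and 14 bases past the start. The ER stress element (ERSE), searched on both strands, through which ATF6 is known to act, was in none of the 32 members' windows and in 27 of 35116 windows overall (0.0769%). These are matches of letters and do not show that a factor was bound.

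With P4HA3 overexpression the members did not move together. By edgeR's quasi-likelihood test over 15130 genes, with Benjamini-Hochberg adjustment and a threshold of 0.05, 9 of the 39 tested members were higher (23.1%, against 9.36% of all genes tested) and 5 were lower (12.8%, against 11.4% of all genes tested), while 25 were not called. In either direction 20.8% of all genes tested were called. The median log2 fold change of the members was 0.01, and that of all genes was 0.01. Genes that rose were the regulators DDIT3, STC2 and CEBPG, the serine synthesis enzyme PSAT1 and the synthetases NARS1, EPRS1, TARS1, LARS1 and GARS1. Those that fell were DDIT4, CEBPB, TRIB3, the mitochondrial carboxykinase PCK2 and the glutaminyl-tRNA synthetase QARS1. No called change reached 1 on the log2 scale. The changes ran from 0.19 to 0.46 among the higher members and from -0.21 to -0.75 among the lower. In bulk RNA, fewer cells of a type and less RNA per cell cannot be told apart.

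**Figure D1:**
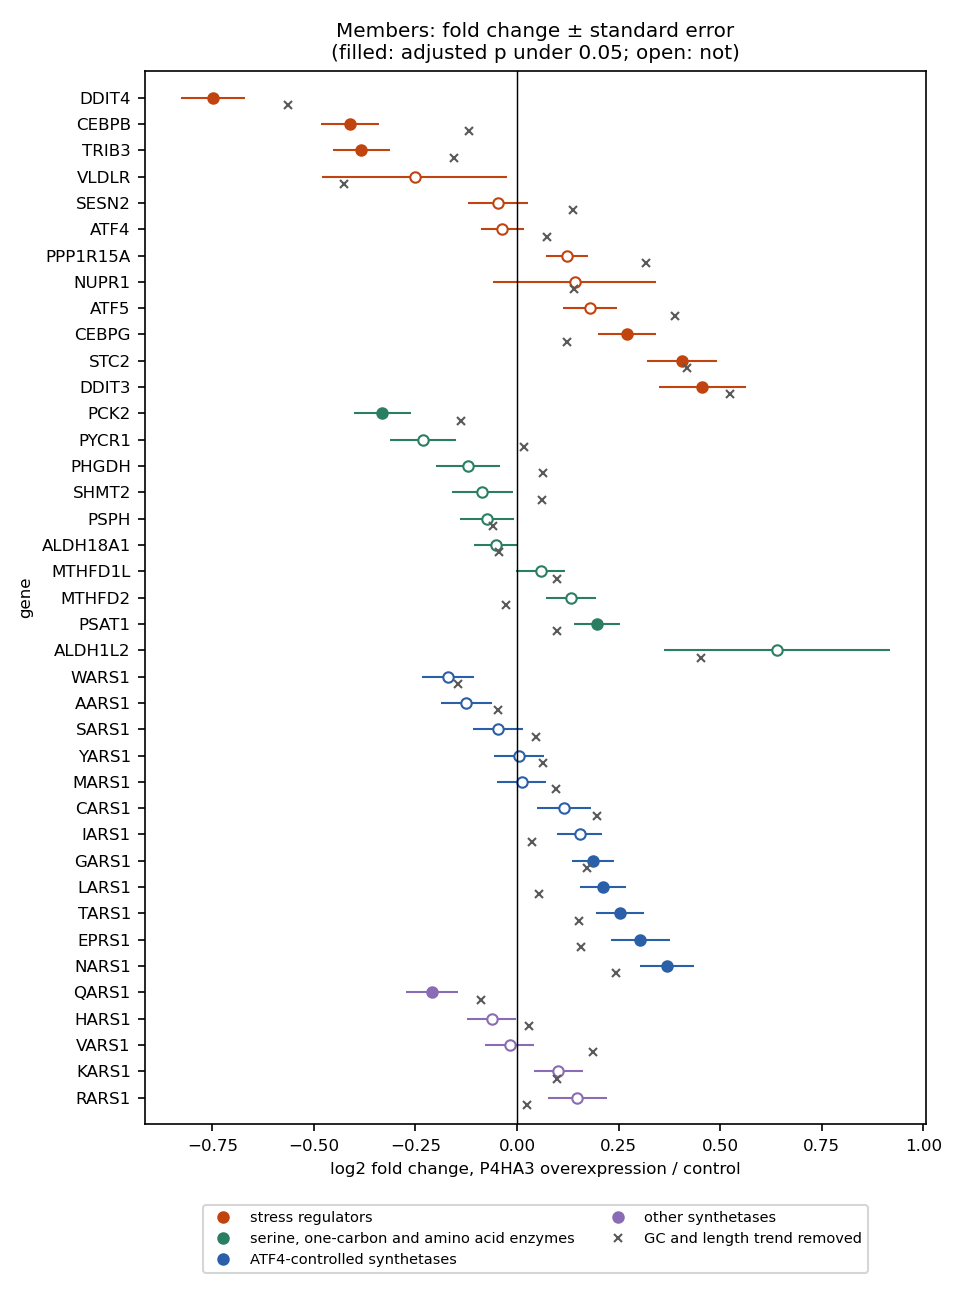
log2 fold change (horizontal axis, P4HA3 overexpression over control, n = 3 libraries per group) of the 39 tested members, with bars of 1 standard error; filled points have an adjusted p under 0.05 and crosses give the value from the fit without the GC and length trend. DDIT4 at -0.75 lies furthest to the left of all the members, and 9 of the 12 ATF4-controlled synthetases lie to the right of 0.

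The calls divided by base composition. The higher members had transcripts of 41.3% to 50.5% GC and the lower members of 54.8% to 66.2% GC. Over the 39 members Spearman's rho between GC content and log2 fold change was -0.64, and over the 15107 genes with annotation it was -0.58. The points share the 6 libraries and are not independent. P4HA3 overexpression replicate 2 was the lowest overexpressing library for all 5 lower members and the highest for 7 of the 9 higher ones. Calls, and values for some members, are therefore also given from a fit without each library's smooth trend on GC content and transcript length. This fit is called the trend removed below, and it also removes any biological difference that follows GC content or length. There 10 members were higher (25.6%, against 10.6% of all genes tested) and 3 were lower (7.69%, against 7.94% of all genes tested), and over the members rho was -0.15. The higher calls of DDIT3, STC2, EPRS1, GARS1, NARS1 and TARS1 and the lower calls of DDIT4, TRIB3 and PCK2 were made in both fits. CEBPG, PSAT1, LARS1, CEBPB and QARS1 were called only as counted, and ATF5, PPP1R15A, CARS1 and VARS1 only with the trend removed, all 4 as higher.

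**Figure D2:**
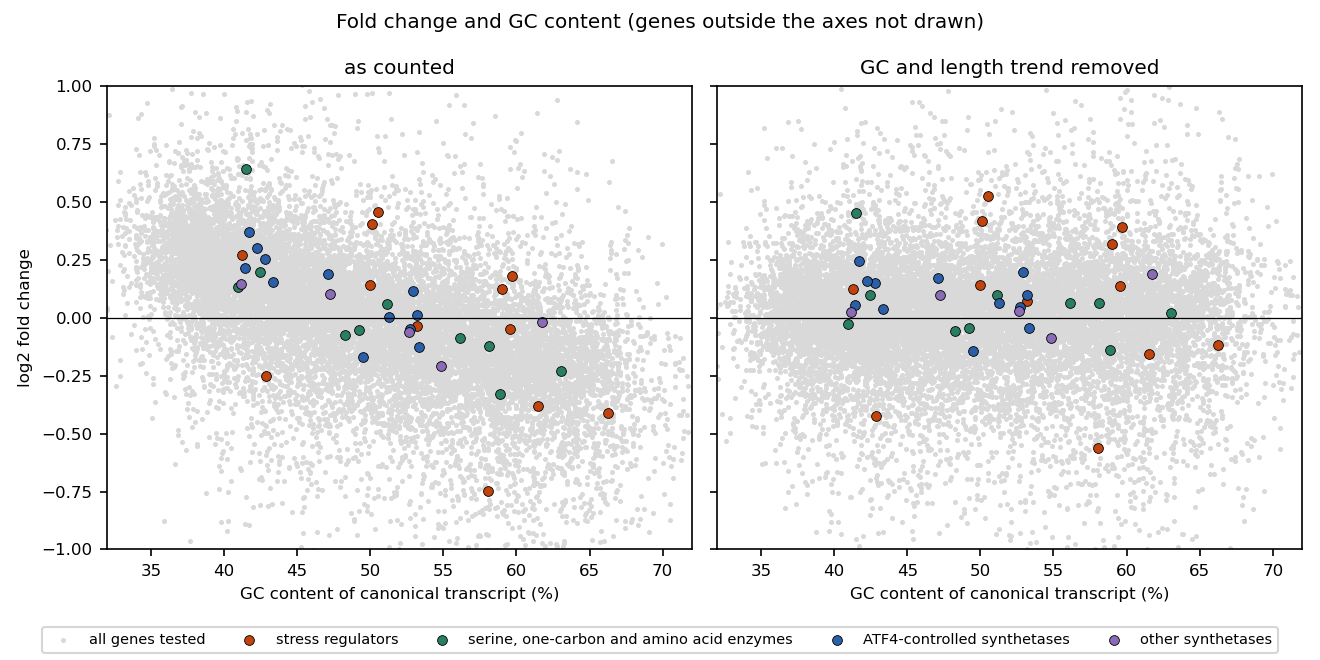
log2 fold change against the GC content of the canonical transcript for all genes tested (grey) and for the 39 members (coloured by group), as counted on the left and after the GC and length trend of each library was taken out on the right. On the left the members follow the downward slope of all genes (rho -0.64 for the members and -0.58 for all genes); on the right rho is -0.15 and -0.01.

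ATF4 itself (ENSG00000128272, chromosome 22, 39519695 to 39522683 of GRCh38) was not called. Its level was 214, 229 and 227 CPM in control replicates 1, 2 and 3 and 224, 218 and 212 CPM in the overexpressing replicates. The groups overlapped, with 223 ± 7.86 CPM in control cells and 218 ± 5.56 CPM with overexpression (SD, n = 3 each), a log2 fold change of -0.04 (SE 0.0534, edgeR adjusted p = 0.641). With the trend removed its log2 fold change was 0.07 (edgeR adjusted p = 0.302), on the other side of 0. Since ATF4 is set mainly by translation, its mRNA is only a partial readout of the protein, which was not measured here. Per kilobase of transcript ATF4 was the 6th most abundant member in control cells, at 157 CPM per kb.

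DDIT4, which encodes REDD1, an inhibitor of mTORC1 that is induced by stress and low oxygen, had the largest change of any called member. It was at 312, 319 and 300 CPM in control cells and at 201, 161 and 193 CPM with overexpression. All overexpressing libraries lay below all control libraries, and DDIT4 fell by 40.5% (log2 fold change -0.75, SE 0.0793, edgeR adjusted p = 0.000664). The fall was -0.56 on the log2 scale with the trend removed (edgeR adjusted p = 4.78e-05), and it was called without each library in turn. DDIT4 was among the abundant members, at 178 CPM per kb in control cells, the 4th in order.

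DDIT3, which encodes CHOP, a C/EBP factor linked to cell death under lasting ER stress, was higher. It stood at 5.26, 5.44 and 5.43 CPM in control cells and at 6.74, 7.87 and 7.53 CPM with overexpression. These groups did not overlap, and the log2 fold change was 0.46 (SE 0.107, edgeR adjusted p = 0.0172) as counted and 0.53 with the trend removed (edgeR adjusted p = 0.00845). DDIT3 counts were low, 116 to 191 per library, and its exons overlap those of MARS1 on the opposite strand over 355 bases, MARS1 having 4676 to 5418 counts. The libraries kept strand, but the strand setting of the counting is not given in the sources used here. ARHGAP9, which shares 519 exon bases with MARS1 on the opposite strand, had 0 counts in control libraries and 0 to 1 with overexpression. Whether reads of MARS1 entered the DDIT3 count was not tested. Leaving out control 1, control 2 or P4HA3 sample 3 gave DDIT3 an edgeR adjusted p of 0.0776, 0.0751 and 0.0735.

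TRIB3, a pseudokinase that is induced by ATF4 and DDIT3 and restrains both ATF4 and AKT, moved the opposite way to DDIT3. Its levels were 56.4, 54.4 and 52.1 CPM in control cells against 45.0, 39.98 and 40.01 CPM with overexpression. No libraries overlapped, and TRIB3 fell by 23.3% (log2 fold change -0.38, SE 0.07, edgeR adjusted p = 0.00703). With the trend removed the log2 fold change was -0.16 (edgeR adjusted p = 0.0459), and without control replicate 2 the adjusted p was 0.0502.

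CEBPB and CEBPG encode C/EBP factors that pair with ATF4, and they were called in opposite directions. CEBPB was at 376, 411 and 369 CPM in control cells and at 309, 264 and 297 CPM with overexpression. CEBPG was at 42.5, 42.5 and 46.6 CPM in control cells and at 50.7, 56.6 and 51.6 CPM with overexpression. Neither gene's groups overlapped. The log2 fold change of CEBPB was -0.41 (SE 0.0713, edgeR adjusted p = 0.00576) and that of CEBPG was 0.27 (SE 0.0705, edgeR adjusted p = 0.0252). Both calls were lost with the trend removed, at -0.12 for CEBPB (edgeR adjusted p = 0.0751) and 0.12 for CEBPG (edgeR adjusted p = 0.0773), and their GC contents, 66.2% and 41.3%, were the highest among the members and close to the lowest. CEBPB was called without each library in turn, and it was also lower when a replicate block was added to the fit with the trend removed (-0.12, edgeR adjusted p = 0.0402). The call of CEBPG was lost when control 1, control 2, P4HA3 sample 2 or P4HA3 sample 3 was left out (edgeR adjusted p = 0.115, 0.113, 0.0592 and 0.079).

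STC2, a secreted glycoprotein induced by ER and oxidative stress, rose. It was at 14.9, 14.1 and 13.0 CPM in control cells and at 18.0, 19.3 and 18.4 CPM with overexpression. The groups stood apart, with a log2 fold change of 0.41 (SE 0.086, edgeR adjusted p = 0.0123) that was 0.42 with the trend removed (edgeR adjusted p = 0.00296). The call was lost when control 2 or P4HA3 sample 3 was left out (edgeR adjusted p = 0.0642 and 0.0554).

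ATF5 and PPP1R15A are translated under the same stress as ATF4, ATF5 being a related transcription factor and PPP1R15A (GADD34) the phosphatase subunit that reverses eIF2alpha phosphorylation. ATF5 was at 103, 108 and 96.7 CPM in control cells and at 124, 111 and 113 CPM with overexpression. PPP1R15A was at 95.4, 94.4 and 92.4 CPM in control cells and at 103, 101 and 103 CPM with overexpression. For both genes all overexpressing libraries lay above all control libraries, as they did for 14 of the 39 tested members and for 19.7% of all genes tested, while 6 members and 20.4% of all genes lay wholly below. Neither was called as counted (log2 fold change 0.18, edgeR adjusted p = 0.0727 for ATF5 and 0.12, edgeR adjusted p = 0.104 for PPP1R15A). With the trend removed both were higher, at 0.39 (edgeR adjusted p = 0.000103) and 0.32 (edgeR adjusted p = 0.000694). Their GC contents were 59.7% and 59.0%. ATF5 overlaps NUP62 on the opposite strand over 565 exon bases, and NUP62 had 3407 to 3860 counts.

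The remaining stress regulators were not called in either fit. SESN2, a leucine sensor that inhibits mTORC1, was at 27.5 to 30.8 CPM in control cells and 27.2 to 28.7 CPM with overexpression. NUPR1, a small chromatin-bound stress protein, was at 1.22 to 1.31 CPM and at 1.25 to 1.73 CPM, the highest value being P4HA3 overexpression replicate 3. VLDLR, a lipoprotein receptor induced by ATF4, was at 1.15 to 1.59 CPM and at 0.907 to 1.37 CPM. In all 3 genes the groups overlapped, and for NUPR1 and VLDLR the standard errors were 0.2 and 0.228 on the log2 scale, so changes as small as most of those called were not detectable at this depth. Over the 12 stress regulators 3 were higher and 3 lower, and with the trend removed 4 were higher and 2 lower. Over all genes tested the shares were 9.36% higher and 11.4% lower, and 10.6% and 7.94% with the trend removed. Their summed level was 1252, 1312 and 1232 CPM in control cells and 1111, 1010 and 1067 CPM with overexpression, CEBPB, DDIT4 and ATF4 being the most abundant.

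**Figure D3:**
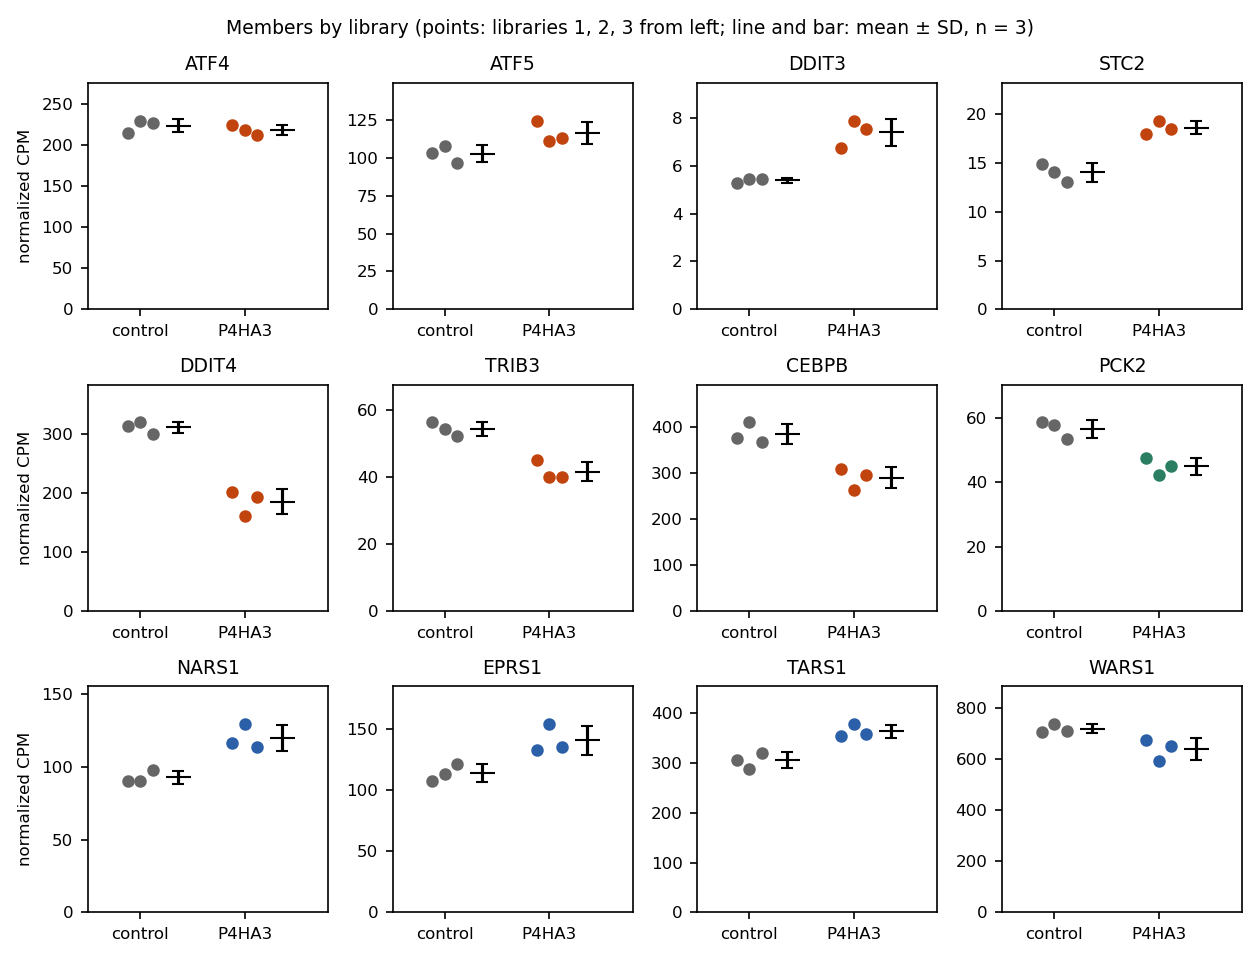
Normalized CPM (vertical axes, from 0) of 12 members in each library, with controls in grey and P4HA3 overexpression in colour; the line and bar beside the points are the mean and SD of 3 libraries. The groups overlap for ATF4 and stand apart for the other 11 genes, of which DDIT4, TRIB3, CEBPB, PCK2 and WARS1 are lower with overexpression.

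Among the metabolic enzymes the serine pathway did not change as a block. PHGDH, PSAT1 and PSPH carry out the successive steps from a glycolytic intermediate to serine. PSAT1, the transaminase, was at 134, 125 and 131 CPM in control cells and at 157, 146 and 144 CPM with overexpression. The groups did not overlap, and PSAT1 was called higher (log2 fold change 0.20, SE 0.0572, edgeR adjusted p = 0.0361), but not with the trend removed (0.10, edgeR adjusted p = 0.199). Its call was also lost when any one control or P4HA3 sample 3 was left out, where the edgeR adjusted p ran from 0.0541 to 0.139. PHGDH, the first enzyme, was at 217, 211 and 195 CPM in control cells and at 213, 173 and 187 CPM with overexpression. PSPH, the last, was at 47.4, 43.9 and 45.5 CPM and at 44.5, 44.4 and 41.1 CPM. Both overlapped between groups and were not called (log2 fold change -0.12, edgeR adjusted p = 0.274 and -0.07, edgeR adjusted p = 0.423), although without P4HA3 overexpression replicate 1 the adjusted p of PHGDH was 0.0263. The pseudogene PSPHP1, which resembles PSPH, had 245 to 420 counts per library, so the split of reads between them is uncertain.

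PCK2, which makes phosphoenolpyruvate in mitochondria, was the one enzyme called lower. Its level was 58.7, 57.7 and 53.4 CPM in control cells and 47.6, 42.3 and 45.0 CPM with overexpression. These libraries did not overlap, and PCK2 fell by 20.5% (log2 fold change -0.33, SE 0.0692, edgeR adjusted p = 0.0117). With the trend removed the log2 fold change was -0.14 (edgeR adjusted p = 0.0491), and leaving out control 1, control 2 or P4HA3 sample 3 gave an edgeR adjusted p of 0.0688, 0.0707 and 0.0556.

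The mitochondrial one-carbon enzymes SHMT2, MTHFD2, MTHFD1L and ALDH1L2, which turn serine into formate or carbon dioxide by way of folate, were not called. MTHFD2 was at 133 to 151 CPM in control cells and at 158 to 161 CPM with overexpression, without overlap (log2 fold change 0.13, edgeR adjusted p = 0.14), and its value was -0.03 with the trend removed. ALDH1L2 was at 0.821, 0.469 and 0.45 CPM in control cells and at 0.902, 0.889 and 0.946 CPM with overexpression, a log2 fold change of 0.64 with a standard error of 0.279 (edgeR adjusted p = 0.116). It was the least abundant member per kilobase, at 0.0781 CPM per kb in control cells. SHMT2, at 183 to 203 CPM and at 168 to 203 CPM, and MTHFD1L, at 115 to 117 CPM and at 113 to 129 CPM, overlapped between groups. The proline synthesis enzymes ALDH18A1 and PYCR1 were not called either (log2 fold change -0.05, edgeR adjusted p = 0.496 and -0.23, edgeR adjusted p = 0.0664). PYCR1 stood at 79.6, 78.5 and 69.2 CPM in control cells and at 70.8, 58.7 and 64.0 CPM with overexpression, with 1 overexpressing library above the lowest control.

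ASNS, asparagine synthetase and a classical ATF4 target, was almost absent from the counts. It had 6, 6 and 11 counts in control cells and 10, 3 and 5 with overexpression, under the filter, and was not tested. In the gene models used here a long noncoding gene on the same strand (ENSG00000284707) shares 2415 exon bases with ASNS, and this gene had 1 or 2 counts per library. How the counting treated reads that match both genes is not given in the sources used here, so the low count is no measure of ASNS expression. Over the 10 enzymes tested 1 was higher and 1 lower, and with the trend removed none was higher and 1 was lower. As counted, 10% in each direction was close to the 9.36% and 11.4% of all genes tested. The summed level of the 11 enzymes was 1198, 1167 and 1138 CPM in control cells and 1226, 1092 and 1119 CPM with overexpression.

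**Figure D4:**
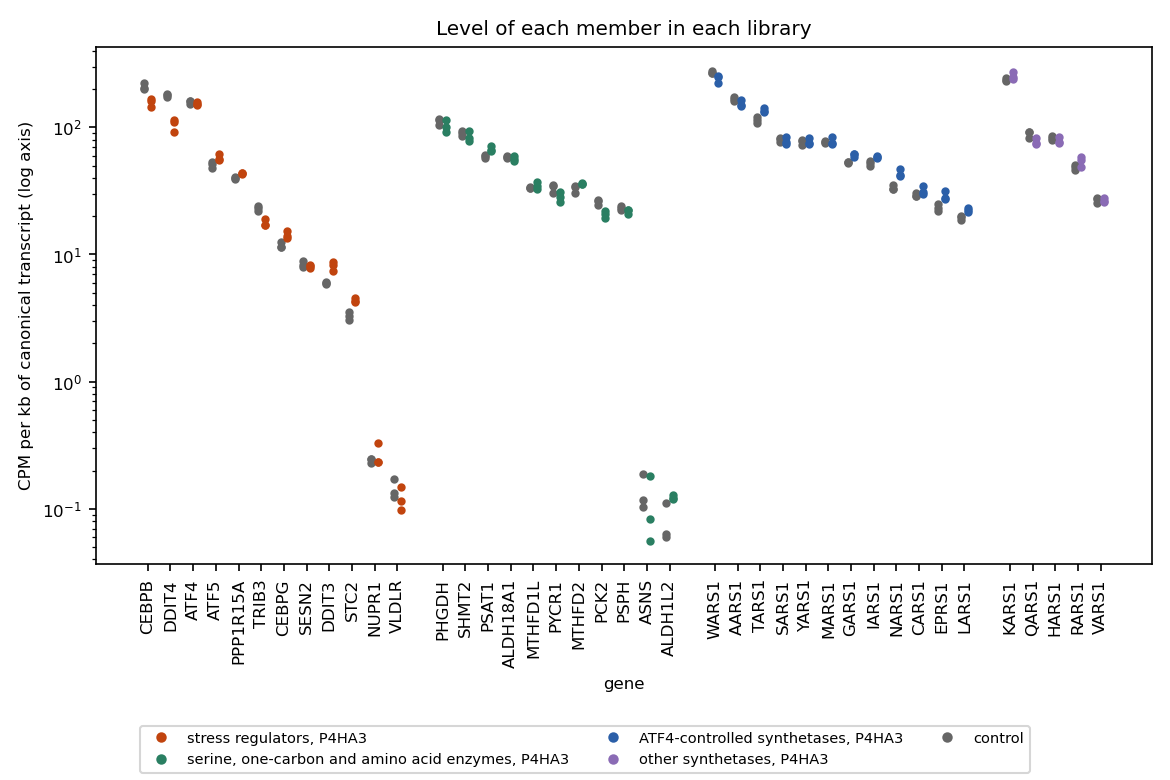
Level of all 40 members in each library as CPM per kilobase of the canonical transcript (vertical axis, log scale), ordered within each group by the control mean, with controls in grey. Control means run from 272 CPM per kb for WARS1 down to 0.0781 for ALDH1L2, and ASNS, ALDH1L2, VLDLR and NUPR1 lie below 1.

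Of the 4 member groups, the ATF4-controlled synthetases held the largest share of higher calls, 5 of 12 (41.7%, against 9.36% of all genes tested), and none was called lower by edgeR. With the trend removed 5 of 12 were again higher, against 10.6% of all genes tested, with CARS1 in place of LARS1. Outside the members, 3 of the 7 remaining cytosolic synthetases and scaffold proteins were also higher as counted, and 2 with the trend removed. The median log2 fold change of the 12 ATF4-controlled synthetases was 0.14. NARS1, the asparaginyl-tRNA synthetase (ENSG00000134440, chromosome 18, 57600656 to 57622213 of GRCh38), led the group. It was at 90.0, 90.3 and 97.9 CPM in control cells and at 117, 130 and 113 CPM with overexpression. The libraries did not overlap, and NARS1 was 29.2% higher (log2 fold change 0.37, SE 0.0669, edgeR adjusted p = 0.00676). With the trend removed its log2 fold change was 0.24 (edgeR adjusted p = 0.00364). Its call was lost without control replicate 2, at an adjusted p of 0.0537, and kept without each of the other 5 libraries.

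EPRS1, which charges tRNAs with glutamate and proline, was at 108, 113 and 122 CPM in control cells and at 132, 154 and 136 CPM with overexpression. TARS1, the threonyl enzyme, was at 306, 288 and 320 CPM and at 354, 378 and 357 CPM. In both genes every overexpressing library exceeded every control. The log2 fold change was 0.30 for EPRS1 (SE 0.0727, edgeR adjusted p = 0.0188) and 0.25 for TARS1 (SE 0.0595, edgeR adjusted p = 0.0175), and with the trend removed 0.16 (edgeR adjusted p = 0.0254) and 0.15 (edgeR adjusted p = 0.0177). Both calls were lost when control 1, control 2 or P4HA3 sample 3 was left out, where the highest adjusted p was 0.0949 for EPRS1 and 0.0848 for TARS1 by edgeR.

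GARS1, the glycyl enzyme, was at 131, 128 and 130 CPM in control cells and at 150, 150 and 143 CPM with overexpression. LARS1, the leucyl enzyme that also senses leucine for mTORC1, was at 95.0, 88.05 and 93.3 CPM and at 107, 111 and 103 CPM. Again no libraries overlapped. GARS1 was 13.9% higher (log2 fold change 0.19, SE 0.0517, edgeR adjusted p = 0.0306) and 0.17 with the trend removed (edgeR adjusted p = 0.0111). LARS1 had a log2 fold change of 0.21 (SE 0.057, edgeR adjusted p = 0.0278) as counted and 0.06 with the trend removed (edgeR adjusted p = 0.521). GARS1 was called in 1 of the 6 fits that left out a library, the one without P4HA3 overexpression replicate 1 (edgeR adjusted p up to 0.114 in the others), and LARS1 in 2, without that library and without control replicate 3 (up to 0.116).

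The other 7 ATF4-controlled synthetases were not called. IARS1, the isoleucyl enzyme, was at 235, 222 and 244 CPM in control cells and at 255, 266 and 259 CPM with overexpression, without overlap (log2 fold change 0.15, edgeR adjusted p = 0.0707). With the trend removed IARS1 was at 0.04 (edgeR adjusted p = 0.552). CARS1, the cysteinyl enzyme, was at 83.1, 78.9 and 78.5 CPM and at 94.4, 84.1 and 82.2 CPM, with a log2 fold change of 0.12 as counted (edgeR adjusted p = 0.22) and 0.20 with the trend removed (edgeR adjusted p = 0.0183). WARS1, the tryptophanyl enzyme, which interferon also induces, was at 706, 738 and 710 CPM and at 673, 591 and 651 CPM, lower without overlap but not called (log2 fold change -0.17, edgeR adjusted p = 0.0806). WARS1 was the most abundant member per kilobase, at 272 CPM per kb in control cells. AARS1, the alanyl enzyme and the third most abundant synthetase per kilobase after WARS1 and KARS1, was at 550 to 600 CPM in control cells and at 509 to 560 CPM with overexpression (log2 fold change -0.12, edgeR adjusted p = 0.168). MARS1, SARS1 and YARS1, the methionyl, seryl and tyrosyl enzymes, overlapped between groups and had log2 fold changes of 0.01, -0.05 and 0.00.

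Synthetases with the CARE core were both called and not called. Of the 7 with the core, GARS1, NARS1 and TARS1 were higher, and AARS1, CARS1, IARS1 and MARS1 were not called as counted. Of the 7 whose window lacked the core, EPRS1 was higher, QARS1 was lower, and SARS1, WARS1, HARS1, KARS1 and RARS1 were not called. The number higher as counted was 3 of 7 with the core and 1 of 7 without it, against 9.36% of all genes tested. With the trend removed it was 4 of 7 and 1 of 7, against 10.6% of all genes tested. The difference was not tested. LARS1, YARS1 and VARS1 had no window. Among the other members with the core, CEBPG was higher, MTHFD1L was not called and ASNS was not tested.

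Which ATF4-controlled synthetases were called depended on the libraries used. The number higher was 6 without P4HA3 overexpression replicate 1, 3 without replicate 2 and 1 without replicate 3. It was 1, 0 and 4 without control replicates 1, 2 and 3. Over all genes the share called higher fell at the same time, to 1.49% and 1.06% with control 1 or 2 left out and to 1.79% with P4HA3 sample 3 left out, and rose to 18.3% with P4HA3 sample 1 left out. It was 5.75% with P4HA3 sample 2 and 9.08% with control 3 left out. Without P4HA3 overexpression replicate 1, AARS1 and WARS1 were called lower (edgeR adjusted p = 0.0433 and 0.0218) and IARS1 higher (0.0403). Over all members the calls were 9 higher and 5 lower with all libraries, 10 and 9 without P4HA3 overexpression replicate 1, 6 and 4 without replicate 2 and 1 and 3 without replicate 3. They were 2 and 3 with control 1 left out, 0 and 2 (CEBPB and DDIT4) with control 2 left out, and 7 and 6 with control 3 left out. The share of all genes called lower moved as well, from 17.6% without P4HA3 sample 1 to 8.59% and 4.10% without P4HA3 samples 2 and 3, and it was 3.60%, 2.41% and 11.7% without control 1, 2 and 3. NARS1 was the higher member called most often, in 5 of these 6 fits, and CEBPB and DDIT4 were lower in all 6.

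**Figure D5:**
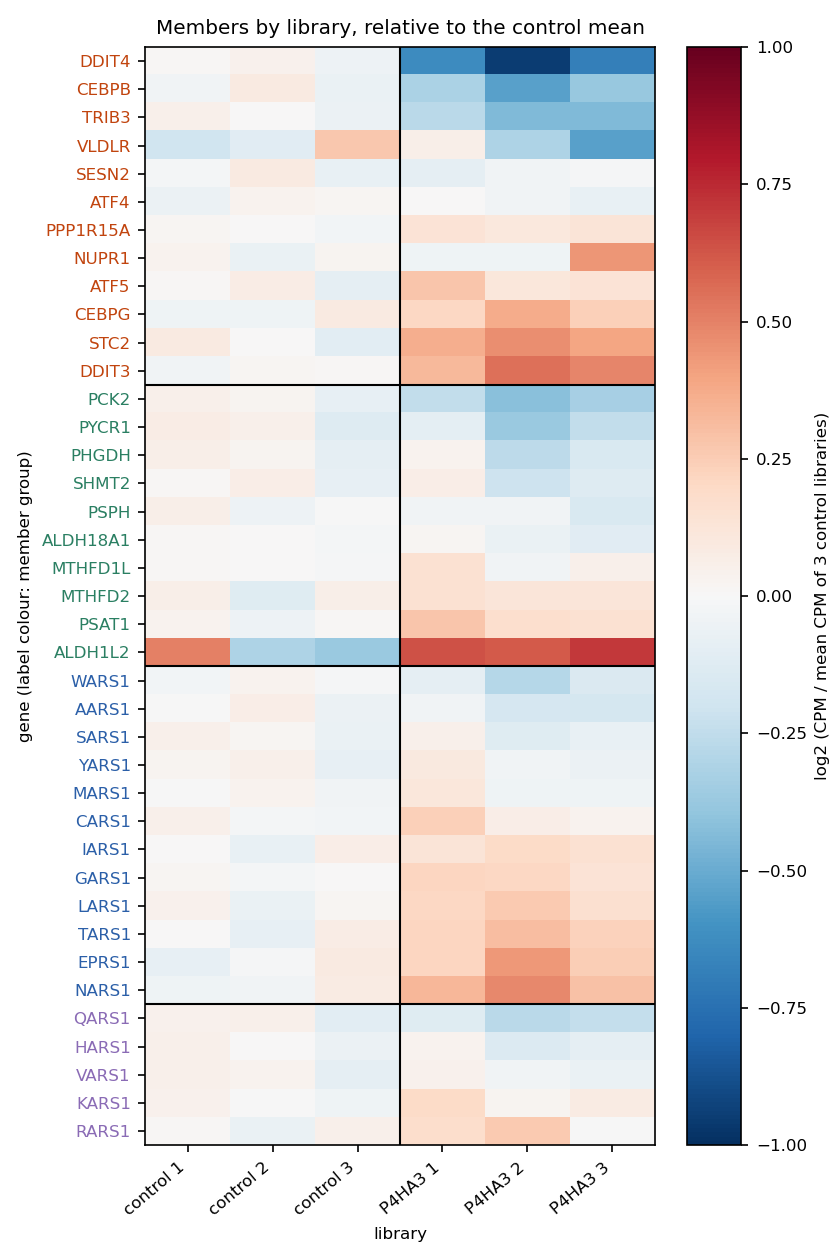
log2 ratio of each library's CPM to the mean of the 3 control libraries (colour, red higher and blue lower) for the 39 tested members, with libraries in columns and genes in rows grouped by role. DDIT4, CEBPB, TRIB3 and PCK2 are blue in all 3 overexpressing libraries, NARS1, EPRS1, TARS1, LARS1 and GARS1 are red in all 3, and P4HA3 overexpression replicate 2 has the strongest colour in most of these rows.

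Of the 5 other synthetases, QARS1 was called lower, against 11.4% of all genes tested, and the rest were not called. QARS1, the glutaminyl enzyme, was at 225, 226 and 203 CPM in control cells and at 201, 180 and 184 CPM with overexpression. The highest overexpressing library lay just under the lowest control library. QARS1 had a log2 fold change of -0.21 (SE 0.0647, edgeR adjusted p = 0.0443) as counted and -0.09 with the trend removed (edgeR adjusted p = 0.165). Its call was lost when control 1, control 2, P4HA3 sample 2 or P4HA3 sample 3 was left out (edgeR adjusted p = 0.172, 0.165, 0.0926 and 0.145). KARS1, the lysyl enzyme, was at 486, 470 and 459 CPM in control cells and at 538, 481 and 499 CPM with overexpression, with a log2 fold change of 0.10 (edgeR adjusted p = 0.239). RARS1, HARS1 and VARS1, the arginyl, histidyl and valyl enzymes, overlapped between groups, at log2 fold changes of 0.15, -0.06 and -0.02 (edgeR adjusted p = 0.158, 0.469 and 0.854). With the trend removed VARS1 was called higher (0.19, edgeR adjusted p = 0.0115) and RARS1 was at 0.02 (edgeR adjusted p = 0.80). HARS1 shares 1090 exon bases with WDR55 on the opposite strand.

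Summed over all, transcripts of the 17 synthetases were at 3987, 3985 and 3908 CPM in control cells and at 4169, 3949 and 3931 CPM with overexpression, so the summed level overlapped between groups although 5 synthetases rose and 1 fell. Within the synthetases rho between GC content and log2 fold change was -0.77 over the 17 genes as counted and -0.13 with the trend removed. Exons of 19 of the 40 members overlap those of another gene in the count table, in 7 of them on the same strand, and NUPR1 shares 909 exon bases on the same strand with ENSG00000289754, a gene that is only in the annotation used here.

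Neighbouring genes of the pathway were read for context from lists chosen by function. Their counts stand against 9.36% higher and 11.4% lower of all genes tested as counted, and against 10.6% and 7.94% with the trend removed. Upstream, 1 of 13 genes for eIF2alpha kinases, phosphatase partners and eIF2 or eIF2B subunits was called, as higher. This was EIF2S1, which encodes eIF2alpha itself (log2 fold change 0.22, edgeR adjusted p = 0.0194), and its value was 0.01 with the trend removed. Of 20 tested ATF4 targets that are not members, 3 were higher and 1 lower as counted, and 7 and 1 with the trend removed. SLC7A11, the cystine/glutamate antiporter, had the largest change of these (log2 fold change 1.03, edgeR adjusted p = 0.00958, and 0.69 with the trend removed), at 11.99, 12.53 and 14.67 CPM in control cells and 20.2, 37.4 and 22.6 CPM with overexpression. XPOT, which exports tRNA from the nucleus, was higher (0.21, edgeR adjusted p = 0.0453) and EIF4EBP1, a translation repressor, was lower (-0.33, edgeR adjusted p = 0.0156), neither with the trend removed (0.02 and -0.07).

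Of the 7 remaining cytosolic synthetases and scaffold proteins of the multisynthetase complex, 3 were higher and 1 lower. Among the higher ones were the scaffold AIMP1 (0.42, edgeR adjusted p = 0.0112) and TARS3 (0.36, edgeR adjusted p = 0.0225), and with the trend removed 2 were called, AIMP1 and TARS3. Of 16 tested mitochondrial synthetases 2 were higher, among them HARS2 (0.25), and FARS2 was lower (-0.40). With the trend removed HARS2 was the 1 higher and FARS2 the 1 lower. Of 14 tested genes among the remaining folate, serine, glycine and proline enzymes 3 were higher and 2 were lower, with PYCR3 among the lower (-0.32). The groups of PYCR3 overlapped. With the trend removed 2 were higher and 1 was lower, and PYCR3 was not called (-0.11, edgeR adjusted p = 0.263). The ER chaperones and the other arms of the unfolded protein response gave the highest count of these lists, with 9 of 13 higher and none lower by edgeR as counted, and 9 higher and 1 lower with the trend removed. HSP90B1, an ER chaperone, had a log2 fold change of 0.77 (SE 0.0935, edgeR adjusted p = 0.00116). PDIA4, a disulfide isomerase, was at 0.50 (edgeR adjusted p = 0.00135), and DNAJC3, a co-chaperone that inhibits the eIF2alpha kinase PERK, was at 0.49 (edgeR adjusted p = 0.00676). The differences between these lists and the members were not tested.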

How the data were processed

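RNA-seq of poly-A RNA was analysed in 3 control and 3 P4HA3 overexpression samples of SiHa PR cells. Per the methods, strand-specific dUTP libraries were sequenced as paired ends of 150 bp, aligned to GRCh38 with STAR and counted with HTSeq, whereas the submitters' processing notes name HISAT2. Strand setting, handling of reads matching several genes and tool versions are not given in the sources used here. The authors deposited raw counts for 60664 Ensembl genes, without normalization. Of these identifiers, 60463 matched GENCODE 44, which gave symbols, positions, overlaps, GC content and length of the canonical transcript.

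Counts were tested with the quasi-likelihood test of edgeR 4.0.16 (R 4.3.3), two-sided, with TMM normalization, filterByExpr at a minimum count of 10 and Benjamini-Hochberg adjustment over 15130 genes, without a replicate block. CPM are TMM-normalized. The scripts were tested on simulated data. Total counts of 21773488 to 24939948 per library set the precision, with a biological coefficient of variation of 7.66%. Within groups, libraries differed by more than counting error (chi-square per degree of freedom 5.17 to 17.8). Alternatives were RLE or library-size normalization, DESeq2 1.42.0, limma-voom (limma 3.58.1), other filters, P4HA3 left out, a replicate block, removal of each library's smooth trend on GC content and log2 length (mgcv 1.9.3), and each library left out. Motifs were searched in RefSeq promoter windows, which were used for 32 members. All 40 members are named, with up to the 3 largest called changes per context list, of which some are not reported here. Members and lists were chosen with earlier results of these data known. An exact permutation test of 3 against 3 cannot give a two-sided p under 0.1, so single values rest on the fit across all genes.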

Additional observations from a re-analysis of the deposited data

How the results depend on the processing

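Of the member calls and directions, none changed with DESeq2, limma-voom, RLE normalization, the stricter filter or P4HA3 left out, except that DESeq2 gave no adjusted p for ALDH1L2, VLDLR and NUPR1. Library size alone added ATF5 to the calls. Without the filter on low counts, ATF5 was likewise called higher, 2 enzymes were lower (PYCR1 was added) and 2384 genes were higher overall. When the trend on GC content and length was taken out, 0 enzymes were higher, and of the other synthetases 1 was higher and 0 were lower. In that fit, and then with the replicate block added, the log2 fold change turned to 0.073 and 0.074 for ATF4, 0.14 and 0.14 for SESN2, 0.064 and 0.063 for PHGDH, 0.062 and 0.061 for SHMT2, -0.027 and -0.027 for MTHFD2, 0.018 and 0.019 for PYCR1, 0.047 and 0.047 for SARS1, 0.029 and 0.029 for HARS1 and 0.19 and 0.19 for VARS1.

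Correlations of same-numbered deviations were 0.25, -0.0486 and 0.0297, and control replicate 3 correlated best with P4HA3 overexpression replicate 2 (0.268). These values cannot decide whether same-numbered samples were paired, because the deviations also follow GC content in each library. With the replicate block 2138 genes were higher and 2 enzymes were lower (PYCR1 was added, adjusted p = 0.0269), and no other member's call changed. With the block and the trend removed together, 2136 genes were higher, 0 enzymes were higher, 1 ATF4-controlled synthetase was lower (WARS1), CEBPB was again called lower (adjusted p = 0.0402), and of the other synthetases 1 was higher and 0 were lower.

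With each library left out in turn, 534 to 5530 genes were called (163 to 2814 higher, 371 to 2716 lower). Among stress regulators 0 to 3 were higher and 2 to 3 lower, among enzymes 0 to 1 and 0 to 3, among ATF4-controlled synthetases 0 to 6 and 0 to 2, and among the other synthetases 0 to 0 and 0 to 1. The log2 fold change of P4HA3 ran from 9.06 to 9.24. Small log2 fold changes crossed 0 over these fits, from -0.041 (without P4HA3 overexpression replicate 3) to 0.23 for NUPR1, -0.042 to 0.039 for MARS1 and -0.045 to 0.037 for YARS1 (lowest without P4HA3 overexpression replicate 1), and -0.059 to 0.011 for VARS1 (highest without control replicate 1). The cause was not tested. Depth limits NUPR1, VLDLR and ALDH1L2, which were near 1 CPM.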
